A study of Mus musculus with 6 samples.

Results

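The guidance genes described here encode the semaphorins and their plexin and neuropilin receptors, the ephrins and their Eph receptors, the Slit ligands and their Robo receptors, and the netrins with the Unc5 receptors. They were taken by gene symbol alone, as every row of the count table whose symbol belongs to 1 of these families, which gave 68 of 55011 genes. Stromal cells treated for 3 days with 10 nM irisin/HSP90α (3 libraries, called irisin here) were compared with cells given phosphate-buffered saline (PBS, 3 libraries). Irisin is a hormone released from a membrane protein of muscle, and HSP90α is a protein-folding helper found inside and outside cells. The sources used here do not say whether the PBS wells held HSP90α. The study asked whether the treatment moves stromal cells of epididymal fat from a precursor of fat cells toward a state that acts on immune cells. All 6 libraries came from cultured mouse visceral fat stromal cells, genotype label Il33-EGFP-, so the cells of both groups lacked the green reporter of the cytokine gene Il33. No age or sex is given in the labels, nor whether replicates were separate animals or cultures, so the p-values reflect spread among these libraries only, and that spread may be technical.

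Guidance proteins were first described as cues that steer growing axons, and most of them also act outside the nervous system. Semaphorins signal through plexins, which change small GTPase activity and the cytoskeleton, and the secreted class 3 semaphorins mostly bind through a neuropilin co-receptor. Ephrins are anchored to the cell surface, so that Eph receptor tyrosine kinases are engaged by contact with a neighbouring cell. Slits are large secreted proteins that bind Robo receptors, and netrins bind Dcc, Neo1 and Unc5 receptors. In connective tissue and fat, these families are known for their part in vessel growth, cell migration and the sorting of cell types.

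Levels are given as CPM (counts scaled by the library total and a TMM normalization factor), and differences are log2 fold changes of irisin against PBS with their standard error. A gene was called higher or lower where edgeR's quasi-likelihood test gave a Benjamini-Hochberg adjusted p under 0.05 over all 12296 genes tested. Of the 68 guidance genes, 44 passed the low-count filter and were tested, and the other 24 did not. Total counts ran from 5271309 to 6745799 per library, of which the guidance genes held 10648 to 15685 counts, and 1 CPM stood on about 5.17 to 6.89 counts. Of 12 stromal markers all were tested, 2 higher (Pdgfra and Col1a1) and 4 lower (Lum, Thy1, Cd34 and Dpt) with irisin. Their summed level was 38900 to 46200 CPM in PBS and 52200 to 57000 CPM in irisin. Most of that sum was collagen RNA, with mean levels in PBS and irisin of 19190 and 25250 CPM for Col3a1. Those of Col1a1 were 8249 and 11590 CPM, and those of Col1a2 6759 and 8235 CPM. Of 10 leukocyte markers, Csf1r (286 to 414 counts per library), Lyz2 (22 to 111) and Cd68 (14 to 44) were tested and not called, Ptprc had 0 to 3 counts, and Cd3e and Ncr1 were at 0. The libraries PBS replicate 3 and irisin replicate 1 stood apart from the other members of their groups for these genes. PBS replicate 3 was the lowest PBS library for 32 of the 44 tested genes (72.7%, against 40.3% of all genes tested), with a median deviation from its group mean of -0.21 on the log2 scale. Irisin replicate 1 was the lowest irisin library for 29 of the 44 (65.9%, against 37.4% of all genes), with a median deviation of -0.16. Over all genes tested, the median deviation of these libraries was 0.

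**Figure D1:**
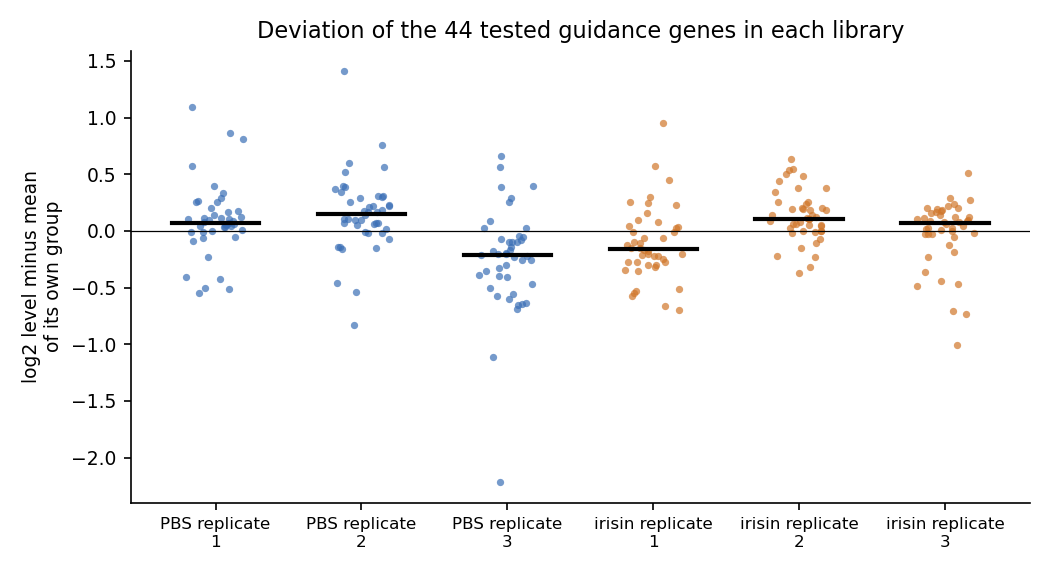
Deviation of each of the 44 tested guidance genes from the mean of its own group (vertical axis, log2 level), by library (horizontal axis). Each point is a gene, blue in PBS and orange in irisin, and the black bars are medians; the bars of PBS replicate 3 (-0.21) and irisin replicate 1 (-0.16) lie under 0 and those of the other 4 libraries above it.

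After 3 days with irisin, the Eph receptor gene Epha4, the class 3 semaphorin gene Sema3c and the Slit ligand gene Slit2 were higher. The neuropilin gene Nrp1 and the class 3 semaphorin gene Sema3e were lower. These 5 of 44 tested genes (11.4%) stand beside 7.42% of all genes tested, 6.82% against 4.2% for rises and 4.55% against 3.22% for falls. Unadjusted p was under 0.05 for 8 of the 44 (18.2%) and for 2236 of all 12296 genes (18.2%). The median log2 fold change was 0.07 over the 44 genes and -0.01 over all genes tested. With libraries scaled by total counts alone, the median was -0.01 over the guidance genes and -0.09 over all genes tested. In 9 of the 44 (20.5%) the values of the groups did not overlap, 4 of them higher and 5 lower with irisin, and the same held for 23.6% of all genes tested.

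Epha4 encodes an Eph receptor tyrosine kinase that binds ephrins of both the A and the B class. Its level was 4.21, 6.81 and 3.13 CPM in PBS replicates 1, 2 and 3, and 17.9, 21.3 and 17.1 CPM in irisin replicates 1, 2 and 3. Every irisin library was above every PBS library, on 17 to 43 counts in PBS and 109 to 112 counts in irisin. Epha4 rose 3.92-fold (log2 fold change 1.97 ± 0.24, adjusted p = 0.000164), and it was called as higher in all 15 other fits, which are described in the closing section.

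Sema3c encodes a secreted semaphorin that binds neuropilins together with plexins such as Plxnd1. Its level was 25.4, 24.9 and 21.0 CPM in the PBS libraries and 35.4, 36.5 and 44.0 CPM in the irisin libraries. The groups did not overlap, and Sema3c rose 1.62-fold (log2 fold change 0.70 ± 0.14, adjusted p = 0.00619). Without irisin replicate 3, its highest library, the adjusted p from edgeR was 0.0503 and the call was lost. That fit called 4.74% of all genes tested, against 7.42% with all libraries.

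Sema3e encodes the class 3 semaphorin that binds Plxnd1 without needing a neuropilin. It stood at 7.26, 11.1 and 7.73 CPM in PBS and at 2.08, 3.67 and 3.77 CPM in irisin. All 3 irisin libraries lay under all 3 PBS libraries, on 13 to 24 counts against 42 to 70. Sema3e was 2.74-fold lower (log2 fold change -1.46 ± 0.29, adjusted p = 0.00707). Within each library the count of Sema3c was 3.5, 2.24 and 2.71 times that of Sema3e in PBS and 17, 9.95 and 11.7 times in irisin, which describes these 2 chosen genes and was not tested.

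Slit2 encodes a secreted Robo ligand. It was at 64.1, 78.0 and 58.5 CPM in PBS and at 84.7, 110.0 and 94.6 CPM in irisin. The groups did not overlap, though the lowest irisin library and the highest PBS library were close, and Slit2 rose 1.44-fold (log2 fold change 0.52 ± 0.13, adjusted p = 0.0257). Its call was lost without PBS replicate 1 (log2 fold change 0.50, adjusted p = 0.111 from edgeR), irisin replicate 2 (0.42, adjusted p = 0.155) or irisin replicate 3 (0.54, adjusted p = 0.083). Those fits called 4.84%, 4.67% and 4.74% of all genes tested, against 7.42% with all libraries.

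Nrp1 encodes neuropilin-1, a co-receptor for class 3 semaphorins that also binds VEGF. It was at 459.6, 433.1 and 421.4 CPM in PBS and at 312.7, 313.5 and 317.4 CPM in irisin. The irisin libraries lay close together, all under the PBS libraries. Nrp1 was 1.39-fold lower (log2 fold change -0.48 ± 0.08, adjusted p = 0.00153), and it was called as lower in all 15 other fits.

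**Figure D2:**
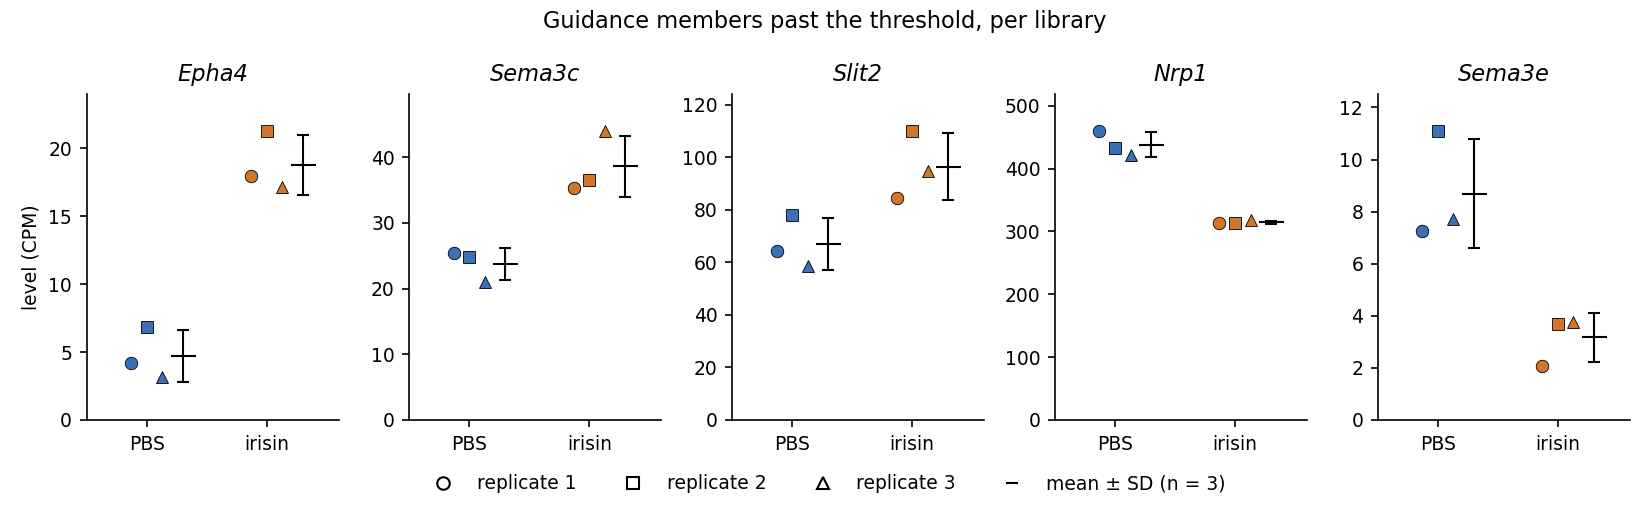
Level in CPM (vertical axis, from 0) of the 5 guidance genes past the threshold, in PBS (blue) and irisin (orange) libraries, with marker shape for the replicate and a black bar for mean ± SD (n = 3). In each panel the 3 irisin libraries lie wholly above (Epha4, Sema3c, Slit2) or wholly below (Nrp1, Sema3e) the 3 PBS libraries.

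Because the libraries are bulk samples, fewer cells of a type and less RNA per cell cannot be told apart. Nrp1 is also known from endothelial cells, and levels of other cell types' markers are therefore given here. Of 12 endothelial markers, which include the guidance gene Robo4, 2 were tested, the summed level of all 12 was 36.1 to 43.3 CPM in PBS and 22.8 to 30.1 CPM in irisin, and none was at 0 in every library. The defining markers Pecam1, Cdh5 and Kdr had 0 to 6 counts per library, and most of the sum was Tek, which was lower with irisin (adjusted p = 0.0303 from edgeR). The summed level of 8 mural cell markers was 2210 to 2490 CPM in PBS and 1820 to 2070 CPM in irisin, with 3 of the 6 tested lower (Cspg4, Abcc9 and Des). Acta2 made up most of that sum, at 2157 ± 122.7 CPM in PBS and 1796 ± 122.1 CPM in irisin (SD, n = 3), and was not called (adjusted p = 0.0976 from edgeR). The sum of 8 mature adipocyte markers was 169 to 275 CPM in PBS and 44.2 to 53.0 CPM in irisin, with all 6 tested members lower and Lep at 0. Neuronal markers summed to 191 to 208 CPM in PBS and 235 to 248 CPM in irisin, nearly all of it Tubb3, with Tubb3 higher (adjusted p = 0.0477 from edgeR), and Stmn2 and Elavl3 were at 0. Schwann cell markers summed to 823 to 909 CPM in PBS and 809 to 830 CPM in irisin, leukocyte markers to 66.7 to 81.9 and 62.4 to 86.9 CPM, and mesothelial markers to 37.6 to 43.7 and 44.1 to 54.2 CPM, with no member of these 3 lists called. The part of these other cell types in the guidance results was not tested.

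The start regions of the 5 called genes are shown because they let the opposite-moving Sema3c and Sema3e be compared by sequence. Each is the RefSeq window (build GRCm38.p6) from 250 bases before to 50 bases after the annotated start, 5′ to 3′ on the gene's strand, and capitals mark GGGCGG on either strand (the GC box) and TATAAA on either strand (the TATA box). The windows are chr1:77515039-77515338 (minus strand) for Epha4, chr5:17574566-17574865 (plus) for Sema3c, chr5:14025026-14025325 (plus) for Sema3e, chr5:47982905-47983204 (plus) for Slit2 and chr8:128358823-128359122 (plus) for Nrp1.
Epha4: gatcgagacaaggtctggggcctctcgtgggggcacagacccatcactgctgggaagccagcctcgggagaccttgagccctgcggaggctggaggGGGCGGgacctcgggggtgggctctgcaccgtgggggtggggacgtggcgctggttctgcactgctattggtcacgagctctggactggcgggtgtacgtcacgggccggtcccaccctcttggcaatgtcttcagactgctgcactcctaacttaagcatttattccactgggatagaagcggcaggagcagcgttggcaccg
Sema3c: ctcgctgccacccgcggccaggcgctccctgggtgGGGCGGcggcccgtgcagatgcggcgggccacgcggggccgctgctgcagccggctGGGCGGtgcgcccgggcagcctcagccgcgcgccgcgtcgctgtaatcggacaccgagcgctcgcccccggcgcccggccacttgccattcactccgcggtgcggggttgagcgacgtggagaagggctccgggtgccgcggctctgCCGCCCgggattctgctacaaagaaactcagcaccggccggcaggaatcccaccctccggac
Sema3e: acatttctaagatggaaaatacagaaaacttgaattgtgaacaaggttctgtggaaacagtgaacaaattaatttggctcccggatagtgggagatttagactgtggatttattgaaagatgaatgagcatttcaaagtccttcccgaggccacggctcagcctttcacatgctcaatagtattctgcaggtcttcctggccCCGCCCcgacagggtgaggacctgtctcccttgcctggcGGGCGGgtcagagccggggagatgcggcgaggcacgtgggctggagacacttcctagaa
Slit2: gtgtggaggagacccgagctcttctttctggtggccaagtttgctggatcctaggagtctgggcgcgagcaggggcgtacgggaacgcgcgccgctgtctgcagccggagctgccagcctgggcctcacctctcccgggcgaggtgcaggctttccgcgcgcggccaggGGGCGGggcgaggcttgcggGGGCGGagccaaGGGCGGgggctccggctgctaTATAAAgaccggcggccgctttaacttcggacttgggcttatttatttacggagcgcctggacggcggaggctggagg
Nrp1: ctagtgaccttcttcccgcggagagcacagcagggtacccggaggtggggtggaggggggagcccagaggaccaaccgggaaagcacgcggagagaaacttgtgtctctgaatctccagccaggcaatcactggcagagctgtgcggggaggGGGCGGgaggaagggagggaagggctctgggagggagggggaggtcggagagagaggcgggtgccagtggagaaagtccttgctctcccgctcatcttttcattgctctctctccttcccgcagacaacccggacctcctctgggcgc

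The Sema3c window held 42 CG dinucleotides at 75.7% G and C, and the Sema3e window 11 at 50.7%. By the GENCODE M21 annotation, Sema3c starts at 17574281 and Nrp1 at 128358604, so their RefSeq windows lie wholly inside the genes. The Sema3e window spans its GENCODE start (14025276). The Sema3c and Sema3e windows may therefore not be like parts of the 2 genes. The other windows held 17 (Epha4), 30 (Slit2) and 14 (Nrp1). A median of 7 was found over all 32851 promoter windows of that length, and a median of 19 over the 75 windows of the 59 guidance genes with an entry. The GC box was present in each of the 5 windows, in 70.7% of the guidance windows and in 35.7% of all windows. Among the 47 windows of tested guidance genes, from which the 5 come, 80.9% held it. The TATA box was found only in Slit2 among the 5, in 2.67% of the guidance windows and 13.6% of all. CCAAT, read on both strands, was found in Epha4, in 28% of the guidance windows and in 37.4% of all windows. TTCNNNGAA, the STAT motif, was found in Sema3e, in 4% of the guidance windows and in 8.3% of all. The AP-1 motif TGANTCA and the NF-κB consensus were in none of the 5, in 4% and 9.33% of the guidance windows and in 7.81% and 4.51% of all windows. These matches describe letters in a window, not bound sites.

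Among the ligands of the semaphorin family, 14 of 20 genes were tested, with 1 called higher, 1 lower and 12 not past the threshold. Sema3d, a secreted semaphorin, was at 27.0, 29.8 and 17.3 CPM in PBS and at 16.5, 16.8 and 13.7 CPM in irisin (log2 fold change -0.67 ± 0.20, adjusted p = 0.0635 from edgeR). PBS replicate 3 was close to the irisin libraries, and without it Sema3d passed as lower (log2 fold change -0.86, adjusted p = 0.00122 from edgeR). It also passed with total counts alone (0.033), limma-voom (0.0112) or no low-count filter (0.00371). Sema3a, the best known repulsive ligand of Nrp1, was at 4.06, 4.12 and 2.95 CPM in PBS and 2.40, 1.74 and 0.943 CPM in irisin (log2 fold change -1.14 ± 0.38, adjusted p = 0.101 from edgeR, 0.0286 from limma-voom). These rest on 6 to 28 counts per library, and Sema3a reached the count minimum of the filter in all libraries of the PBS group only. Sema3b did not pass (log2 fold change -0.05, 95% interval -0.36 to 0.26), and neither did Sema3f (0.94, interval -0.30 to 2.18, on 3 to 17 counts per library).

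The membrane-bound semaphorins of classes 4 to 7 gave no call. Sema6d, a plexin-A1 ligand and the semaphorin with the highest level per length, was at 61.8 ± 7.16 CPM in PBS and 60.0 ± 12.6 CPM in irisin (SD, n = 3; log2 fold change -0.05 ± 0.15, adjusted p = 0.924 from edgeR). Sema4b, Sema4c, Sema5a, Sema6a, Sema6b and Sema7a had adjusted p-values from 0.509 to 0.998, and Sema4a 0.282 (log2 fold change -0.92 ± 0.43). Sema4a and Sema6b also reached the count minimum in all libraries of 1 group only.

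Of the receptors for semaphorins, 10 of 11 were tested and only Nrp1 was called. Nrp2, the second neuropilin, was at 90.6, 94.6 and 85.6 CPM in PBS and at 84.0, 97.2 and 90.03 CPM in irisin, and its log2 fold change was 0.00 ± 0.10 (95% interval -0.21 to 0.21). The count of Nrp1 per count of Nrp2 was accordingly 4.86 ± 0.255 in PBS and 3.49 ± 0.250 in irisin (SD, n = 3), given as a description. Plxna2, a plexin that pairs with neuropilins, was at 54.0, 46.6 and 54.9 CPM in PBS and at 30.1, 43.1 and 40.7 CPM in irisin (log2 fold change -0.45 ± 0.14, adjusted p = 0.0811). Its groups did not overlap, and it passed as lower when libraries were scaled by total counts alone (adjusted p = 0.0346 from edgeR) or when no low-count filter was used (0.0174).

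Plxnd1, the receptor of Sema3e, did not pass, with 85.0, 87.6 and 56.9 CPM in PBS and 67.7, 85.2 and 82.5 CPM in irisin (log2 fold change 0.03 ± 0.16, 95% interval -0.31 to 0.38). The lowest value was that of PBS replicate 3. Plxnb2, a plexin of class 4 semaphorins, was at 415.9, 447.0 and 329.5 CPM in PBS and at 388.5, 497.5 and 509.7 CPM in irisin (log2 fold change 0.23 ± 0.13, adjusted p = 0.412). Its groups overlapped because irisin replicate 1 lay under PBS replicates 1 and 2. PBS replicate 3 and irisin replicate 1 were again the lowest library of each group, and Plxnb2 passed as higher only when both were left out. Plxna1 (log2 fold change -0.15 ± 0.12), Plxna3, Plxna4, Plxnb1 and Plxnc1 did not pass (adjusted p 0.587 to 0.981 from edgeR). Plxnb1 had a single count in PBS replicate 3 and reached the count minimum in all libraries of the irisin group only.

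**Figure D3:**
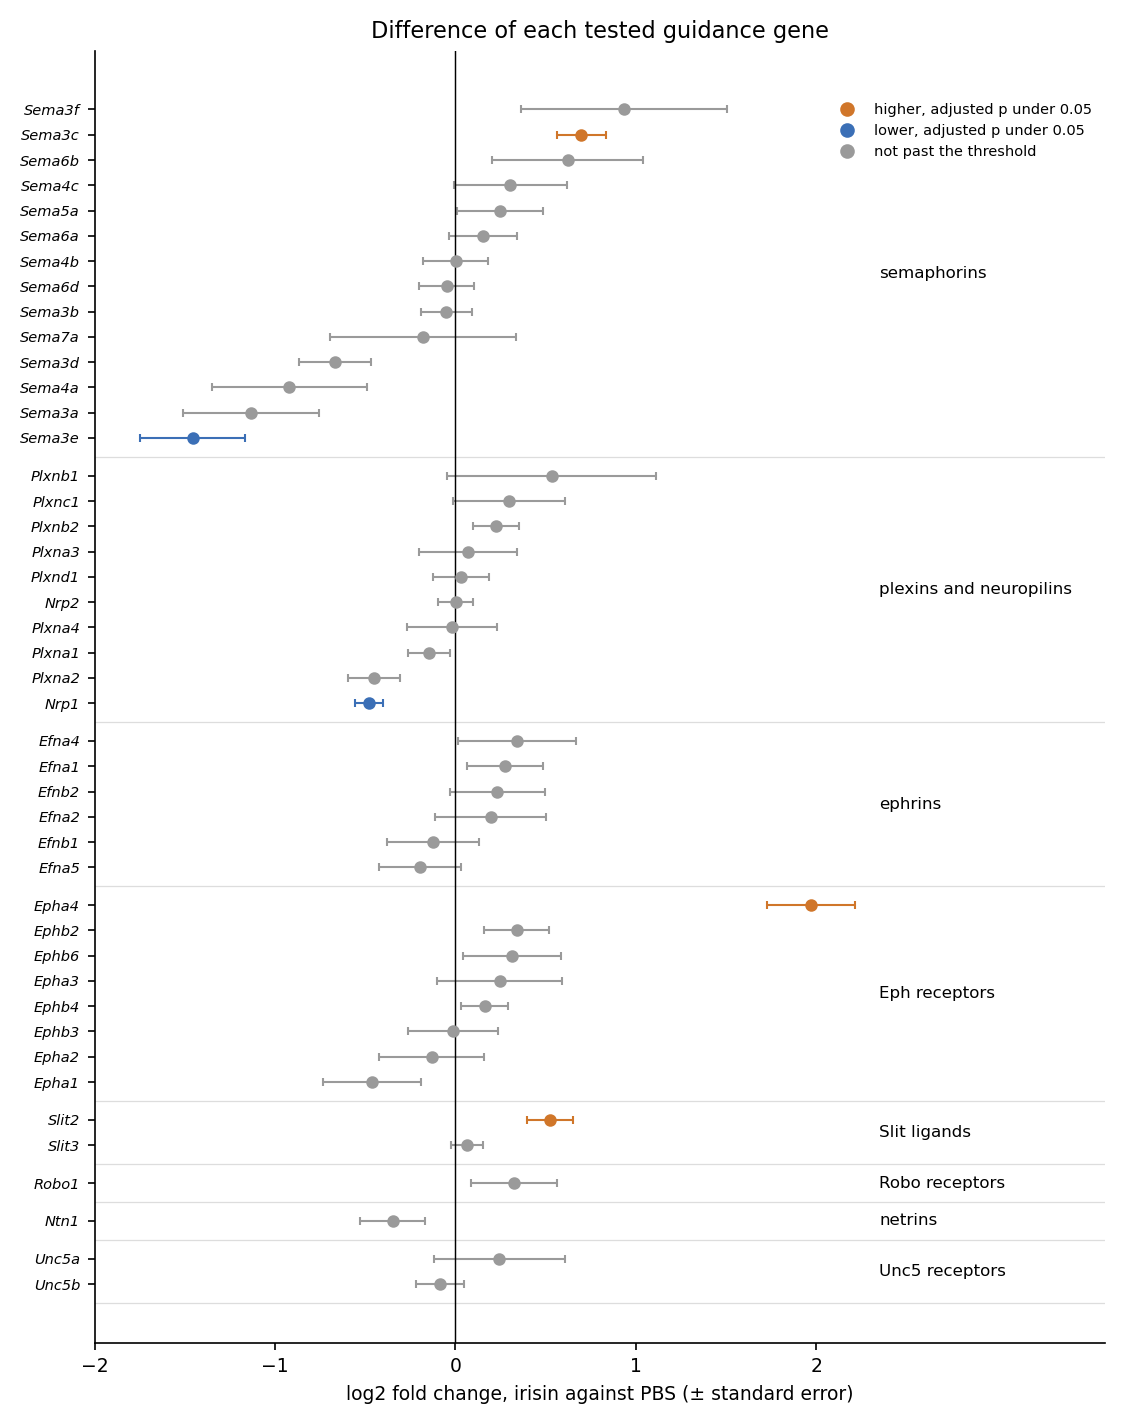
Log2 fold change of irisin against PBS (horizontal axis, ± standard error) for the 44 tested guidance genes (vertical axis), grouped by family. Orange marks the 3 genes called higher, blue the 2 called lower and grey the 39 not past the threshold; Epha4 is farthest to the right (1.97) and Sema3e farthest to the left (-1.46).

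None of the 6 tested ephrins of 8 was called, while their receptor Epha4 was. Efna5, the ephrin with the highest level per length and a ligand of Epha4, was at 16.0, 19.3 and 31.7 CPM in PBS and at 21.4, 17.8 and 18.5 CPM in irisin. PBS replicate 3 was high here, unlike for most guidance genes, and the log2 fold change was -0.20 (95% interval -0.69 to 0.30). Efna1, which had the lowest p of the ephrins, was at 6.82, 7.13 and 6.63 CPM in PBS and at 7.04, 8.12 and 9.74 CPM in irisin (log2 fold change 0.28 ± 0.21, adjusted p = 0.585). Efnb2, a B-class ephrin that also binds Epha4 and is known from arterial vessels, was at 5.94 ± 0.408 CPM in PBS and 7.06 ± 2.20 CPM in irisin (SD, n = 3). Efna2, Efna4 and Efnb1 had intervals that included no change as well.

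Of the 14 Eph receptors, 8 were tested. Besides Epha4, the groups did not overlap for Ephb2, at 18.3, 21.2 and 12.9 CPM in PBS and 21.3, 23.6 and 21.8 CPM in irisin, but it did not pass (log2 fold change 0.34 ± 0.18, adjusted p = 0.356). Ephb4, the receptor of Efnb2 and the Eph gene with the highest level per length, was at 35.3, 30.6 and 26.9 CPM in PBS and at 35.5, 34.4 and 34.1 CPM in irisin (log2 fold change 0.16 ± 0.13, adjusted p = 0.599). Epha1, at 9.14 ± 3.32 CPM in PBS and 6.70 ± 0.402 CPM in irisin (SD, n = 3), passed as lower only without PBS replicate 3. Ephb3, Ephb6, Epha2 and Epha3 had log2 fold changes between -0.13 and 0.31 and did not pass. Per kilobase of transcript, Epha4 went from 0.746 ± 0.299 to 2.97 ± 0.347 CPM (SD, n = 3), which set it beside Ephb3 (3.44 ± 0.720 in PBS and 3.42 ± 1.21 in irisin) after irisin and under it in PBS.

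Slit3 made up most of the Slit level. Per kilobase it was at 78.1 ± 4.43 CPM in PBS and 81.6 ± 7.26 CPM in irisin, against 6.72 ± 1.00 and 9.68 ± 1.28 CPM for Slit2 (SD, n = 3). Its log2 fold change was 0.06 ± 0.09 (95% interval -0.13 to 0.26). The only Robo receptor tested was Robo1, a main receptor of Slit2, at 13.8, 14.7 and 10.1 CPM in PBS and 10.6, 20.5 and 17.9 CPM in irisin. Those values overlapped and Robo1 did not pass (log2 fold change 0.33 ± 0.24, adjusted p = 0.557). Robo2, Robo3 and the endothelial receptor Robo4 had 4 to 7 counts over all 6 libraries.

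Ntn1, which encodes netrin-1, was the only netrin tested, at 35.3, 46.7 and 27.1 CPM in PBS and 25.4, 29.4 and 31.1 CPM in irisin (log2 fold change -0.35 ± 0.18, adjusted p = 0.344). Without PBS replicate 3 it passed as lower. Unc5b, a netrin receptor also known from vessels, was at 73.1, 79.4 and 59.8 CPM in PBS and at 57.3, 76.0 and 67.6 CPM in irisin (log2 fold change -0.08 ± 0.13, 95% interval -0.37 to 0.20). Unc5a, the other Unc5 gene tested, did not pass (log2 fold change 0.24 ± 0.36, adjusted p = 0.819).

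Per kilobase of the longest protein-coding transcript, the mean PBS levels of the tested genes ran from 0.219 CPM per kilobase (Plxnb1) to 121.8 (Nrp1). Nrp1 was highest in PBS (121.8 ± 5.45 CPM per kilobase), before Slit3 (78.1 ± 4.43) and Plxnb2 (61.2 ± 9.37). In irisin, Nrp1 (87.4 ± 0.699), Slit3 (81.6 ± 7.26) and Plxnb2 (71.6 ± 10.3) followed in the same order, and neighbours did not differ beyond their spread (SD, n = 3). The order of these 3 depends on the length used: over all annotated exon bases the PBS levels were 67.3 for Slit3, 51.5 for Plxnb2 and 44.8 for Nrp1. Next came Plxna1 (16.8 ± 1.03 in PBS), Nrp2 (13.4 ± 0.670), Unc5b (12.1 ± 1.70) and Plxnd1 (11.1 ± 2.47), of which the last 3 did not differ beyond their spread. The summed level of the 11 plexins and neuropilins was 232 ± 16.6 CPM per kilobase in PBS and 205 ± 16.1 in irisin, and that of the 20 semaphorins 37.8 ± 5.03 and 38.5 ± 3.39. For the 3 Slit genes the sum was 84.8 ± 5.34 in PBS, against 1.77 ± 0.361 for the 4 Robo genes.

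**Figure D4:**
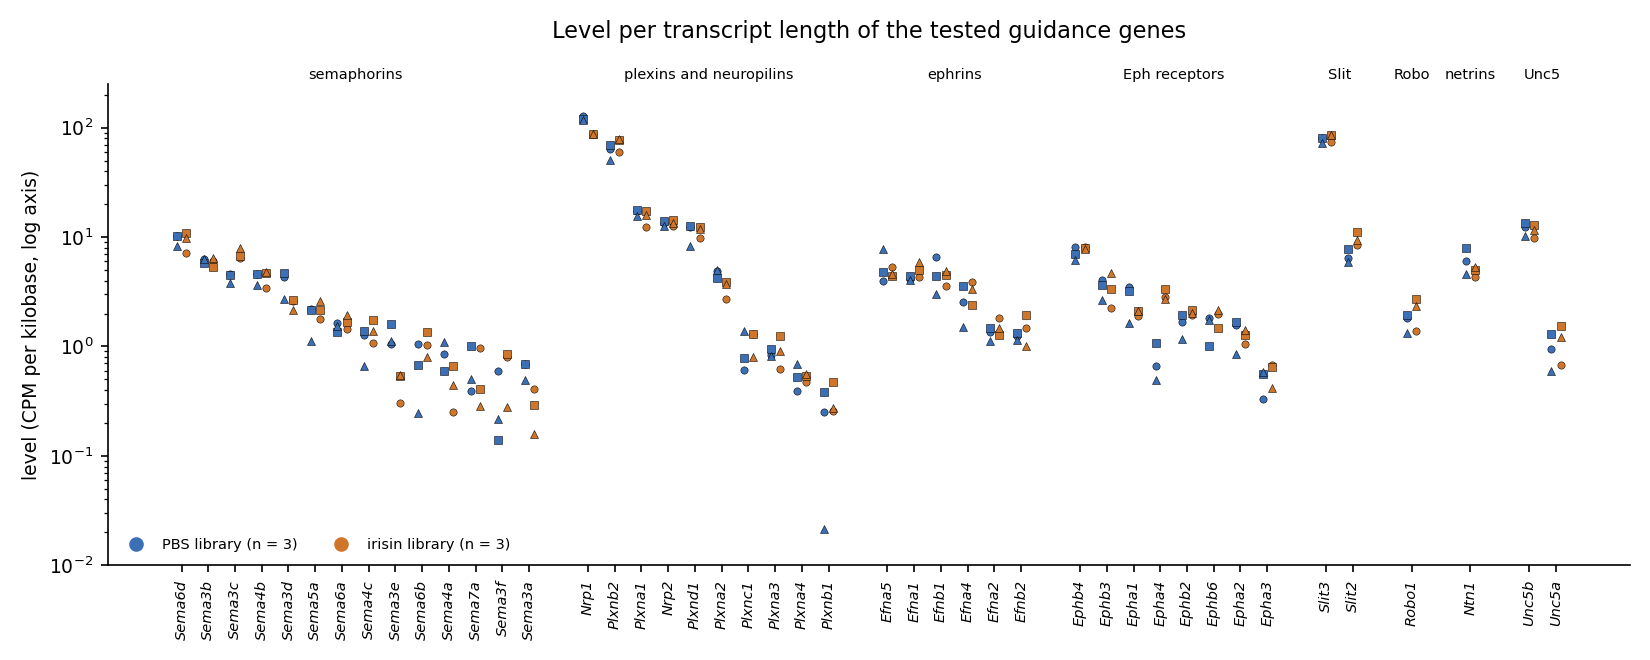
Level of each tested guidance gene in CPM per kilobase of transcript (vertical axis, log scale) in the 3 PBS (blue) and 3 irisin (orange) libraries, by family. Nrp1, Slit3 and Plxnb2 lie at the top (PBS means 121.8, 78.1 and 61.2), and the single low point of Plxnb1 is PBS replicate 3.

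The 24 genes under the filter had 1 to 36 counts over the 6 libraries together. They were Sema3g, Sema4d, Sema4f, Sema4g, Sema5b, Sema6c, Plxnb3, Efna3, Efnb3, Epha5, Epha6, Epha7, Epha8, Epha10, Ephb1, Slit1, Robo2, Robo3, Robo4, Ntn3, Ntn4, Ntn5, Unc5c and Unc5d, and differences in them were not detectable at this depth. Ntn4, a netrin of basement membranes, had 6, 9 and 3 counts in PBS and 2, 0 and 3 in irisin. Epha7 had 2, 5 and 2 counts in PBS and 11, 7 and 5 in irisin. Of the 44 tested, 4 reached the filter in all libraries of 1 group only (Plxnb1, Sema3a, Sema4a and Sema6b), and none of these was called.

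A further list of 62 co-receptors, other ligands and signalling partners of the same families held 42 tested genes, of which 3 rose and none fell (7.14%, against 7.42% of all genes). Chl1, an adhesion molecule of the L1 family that serves Nrp1 as a partner in the response to Sema3a, had the lowest p. It was at 35.7, 32.8 and 36.5 CPM in PBS and at 200.7, 175.3 and 169.1 CPM in irisin, a 5.19-fold rise (log2 fold change 2.38 ± 0.11, adjusted p = 2.5e-08 from edgeR). Rnd1, a GTPase that binds plexins, rose 2.61-fold, from 28.2, 30.4 and 29.3 CPM to 78.1, 73.8 and 77.6 CPM (log2 fold change 1.39 ± 0.10, adjusted p = 2.12e-06). Draxin, a secreted protein that binds netrin-1 and Dcc, rose 1.83-fold, from 78.4, 79.5 and 53.0 CPM to 106.7, 143.6 and 136.2 CPM (log2 fold change 0.87 ± 0.16, adjusted p = 0.00658).

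The groups did not overlap for any of the 3, and each was called in all 15 other fits. Neo1, the netrin and repulsive guidance receptor neogenin, was at 53.3, 54.5 and 53.4 CPM in PBS and at 68.8, 66.1 and 68.2 CPM in irisin, without passing (log2 fold change 0.33 ± 0.10, adjusted p = 0.0559). Neo1 was called higher with limma-voom, with a count minimum of 50, and without both PBS replicate 3 and irisin replicate 1. Dcc had 2 counts in all, 1 in PBS replicate 1 and 1 in irisin replicate 1. Downstream partners of plexins such as Dpysl2 (349.3 ± 8.35 to 356 ± 10.6 CPM, SD, n = 3, log2 fold change 0.03 ± 0.08) and of Robo receptors such as Srgap2 (0.03 ± 0.11) did not pass. Mical2 (-0.45 ± 0.16), Mical3 (-0.39 ± 0.14) and Vav2 (-0.45 ± 0.14) did not pass either. Each of them was called lower with limma-voom and without PBS replicate 3. Of the 42 tested partners, 24 had positive and 18 negative log2 fold changes. Unadjusted p from edgeR was under 0.05 for 14 of them (33.3%, against 18.2% of all genes tested). The list was chosen with earlier results of these data known, so the difference between these shares cannot be read as a result.

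**Figure D5:**
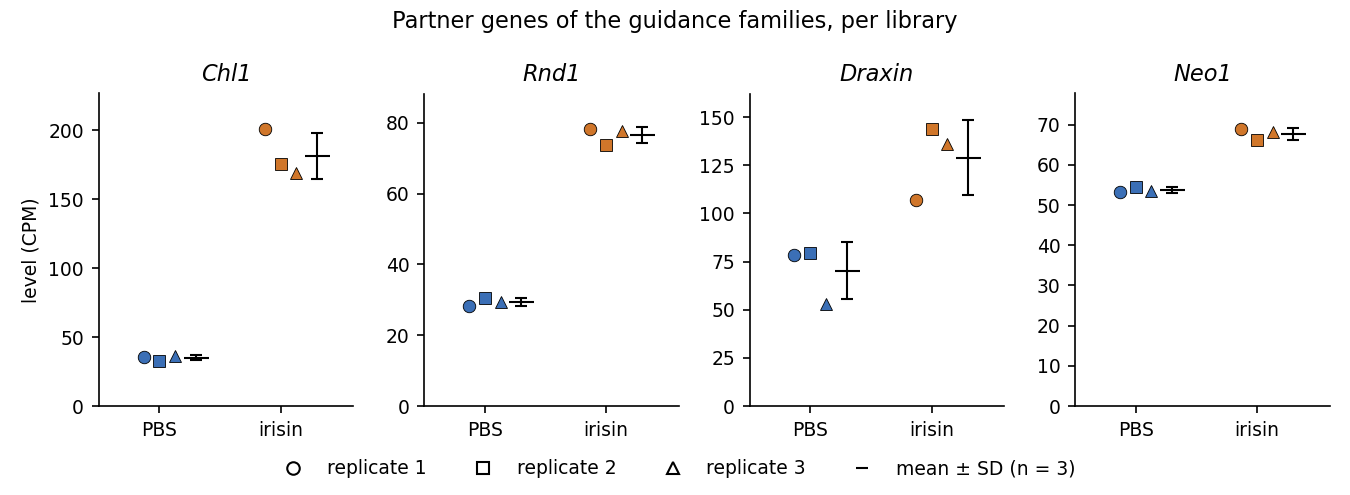
Level in CPM (vertical axis, from 0) of 4 partner genes in PBS (blue) and irisin (orange) libraries, with marker shape for the replicate and a black bar for mean ± SD (n = 3). The 3 irisin libraries lie above the 3 PBS libraries in each panel, farthest for Chl1 (169.1 to 200.7 against 32.8 to 36.5 CPM), and Neo1 did not pass the threshold.

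Positions are those of GENCODE M21 on GRCm38. Epha4 lies on chromosome 1 (77367185 to 77515088), Sema3c on chromosome 5 (17574281 to 17730268), Sema3e on chromosome 5 (14025276 to 14256689), Slit2 on chromosome 5 (47983138 to 48307733) and Nrp1 on chromosome 8 (128358604 to 128503363). All are protein-coding, and counts are sums over a gene, so exons and untranslated regions were not told apart. Among these 5, only Nrp1 shares exon bases with another annotated gene, 80 bases with the microRNA gene Mir1903 on the same strand. Plxna1 shares 970 exon bases with an antisense gene, and since the use of strand in counting is not given in the sources used here, its value is uncertain to that extent. The same limit holds for other tested genes that share exon bases with a gene on the opposite strand. These are Sema4c (334 bases), Plxnb1 (257), Epha1 (236, with the protein-coding gene Zyx), Efna4 (168), Plxna4 (110), Unc5a (34) and Ephb4 (33).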

How the data were processed

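Polyadenylated RNA from 6 libraries (3 PBS, 3 irisin) was made by the Immunological Genome Project's low-input procedure, per the labels' protocols. STAR 2.7.3a, featureCounts and mm10 are named in the submitters' processing notes; the sources used here do not give the annotation release or strand setting. Values are raw counts by gene, whole numbers as deposited. From these, edgeR 4.0.16 in R 4.3.3 computed TMM factors, applied filterByExpr (count minimum 10), which left 12296 of 31436 genes with a count, and tested irisin against PBS by robust quasi-likelihood, with Benjamini-Hochberg adjustment and a threshold of 0.05. The steps were tested on simulated data.

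Alternatives used DESeq2 1.42.0, limma-voom (limma 3.58.1), other scalings and filters, the replicate number as a block and each library left out. All 68 symbols matched GENCODE M21 for lengths and positions. The named genes were each member past the threshold, the highest per length and lowest p of each family, and each called partner with Dcc and Neo1. Ntn4, Epha7, Dpysl2, Srgap2, Mical2, Mical3, Vav2 and the members named with their intervals were added after their values were seen. Members and lists were chosen with earlier results of these data known. Within groups, pairs of libraries differed by a chi-square of 2.59 to 13.4 per degree of freedom, so none repeated another.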

Additional observations from a re-analysis of the deposited data

How the results depend on the processing

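In the 15 alternatives to the reported fit, Epha4, Nrp1, Chl1, Rnd1 and Draxin were called each time, and no log2 fold change of the 5 called members or of Sema3d, Plxna2 and Sema3a changed sign. Sema3e was called in each of the 14 fits that tested it, and a count minimum of 50 left it out. Epha4 ranged from 1.77 to 2.33 and Nrp1 from -0.56 to -0.44 on the log2 scale. Members called higher numbered 3, and 1 to 3 when 1 library was left out (1 without irisin replicate 3, when Sema3c and Slit2 lost their calls). Members called lower numbered 2, but 4 with total counts alone, 4 with limma-voom, 4 with no low-count filter, 1 with a count minimum of 50 and 2 to 5 with 1 library left out (5 without PBS replicate 3). Partners called, in either direction, numbered 3, but 5 with total counts alone and 7 with limma-voom. They numbered 4 with no low-count filter, 4 with a count minimum of 50 and 3 to 6 with 1 library left out (6 without PBS replicate 3). The share of all genes called moved too, from 7.42% to 8.33% with total counts alone, 10.3% with limma-voom, 8.57% with a count minimum of 50 and 3.67% with no low-count filter. It was 10.2% without PBS replicate 3, and 4.67% to 5.56% without any other single library. In the fits where Slit2 or Sema3c lost a call it was 4.84% (without PBS replicate 1), 4.67% (without irisin replicate 2) and 4.74% (without irisin replicate 3). Leaving out both PBS replicate 3 and irisin replicate 1 was added after seeing the data: 4 members were higher and 5 lower, and 7 partners were called, and of all genes 13.5% passed, against 7.42%. With total counts alone 422 genes of the whole table were higher and 602 lower, against 516 and 396. The causes of these shifts were not tested.

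With the replicate number as a block, 3 members were higher and 2 lower, the same 5 genes, and 3 partners were called, while calls over all genes fell from 912 to 691. Deviations of same-numbered libraries correlated at -0.225, 0.14 and -0.161 over genes. With deviations taken from means of 3 libraries, these values cannot decide whether the number marks a shared animal, day or batch. The highest of the 9 correlations between a PBS and an irisin library was 0.336, for PBS replicate 3 with irisin replicate 1, the libraries that stood apart. Depth limits the 24 untested members most, at 0 to 12 counts per library. Among those tested it limits Sema3f (3 to 17), Sema7a (6 to 21), Sema4a (5 to 19), Plxnb1 (1 to 21) and Sema3a (6 to 28).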

Other observations

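The 4 class 3 semaphorin genes on chromosome 5 lie on the same strand within 5.35 Mb (12383385 to 17730268), in the order Sema3d, Sema3a, Sema3e and Sema3c. The first 3 had negative log2 fold changes (-0.67, -1.14 and -1.46), of which only Sema3e passed, and Sema3c, 3.32 Mb beyond Sema3e, rose (0.70). The other tested protein-coding genes in the span did not pass. Their log2 fold changes were -0.81 ± 0.42 for Speer3, between Sema3a and Sema3e, and -0.164 ± 0.212 for Cacna2d1 and 0.095 ± 0.105 for Hgf, between Sema3e and Sema3c. The next protein-coding gene after Sema3c is Cd36, a fatty acid transporter of fat cells, 51421 bases on and on the opposite strand. Cd36 was lower, from 166 ± 16.8 to 42.1 ± 3.03 CPM (SD, n = 3; log2 fold change -1.97 ± 0.11, adjusted p = 1.39e-07 from edgeR), while its neighbour Sema3c was higher. These are values by position, noticed after the data were seen, with no test of position.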
